A study of Mus musculus with 4 samples.

Results

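The skin kallikreins are a family of secreted serine proteases, and Spink5 codes for the multi-domain inhibitor that holds several of them in check. Here they were taken as 10 listed genes, Klk5 to Klk11, Klk13, Klk14 and Spink5, and were found on the array by the gene symbol of each probe set in the platform annotation. Of the 10 genes, 9 were represented, each by 1 probe set, among 45101 probe sets in all. Klk14 was not analysed here, because none of the annotated probe sets carried its symbol. All 9 passed the filter on dim probe sets and stood among 13070 genes tested. The genes were chosen by family membership with their signals in these same 4 arrays, bitransgenic against wild type, already known. Their own differences are therefore a description and support nothing further.

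Gene expression had been measured on single-colour Affymetrix mouse arrays in dorsal skin at postnatal day 16. There were 2 arrays of wild type mice and 2 of bitransgenic mice overexpressing deltaNp63alpha, the p63 isoform that predominates in basal keratinocytes and lacks the amino-terminal transactivation domain. Each array held RNA of 1 animal, as the labels number the arrays of a group as biological replicates (n = 2 per group throughout). The transgenes that make up the bitransgenic genotype, the promoter that drives them, any inducing treatment, the strain and the litters are not named in the labels.

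In the outermost epidermis, corneocytes are held together by corneodesmosomes, modified desmosomes that contain corneodesmosin, desmoglein 1 and desmocollin 1. Kallikreins are secreted as inactive precursors by granular layer keratinocytes, activate one another in a cascade and cut these proteins, so that cells are shed. The Spink5 product, LEKTI, is cut into fragments that bind the proteases, with inhibition that loosens as the stratum corneum becomes acidic. Loss of SPINK5 in people causes Netherton syndrome, with scaling, a leaky barrier and allergic inflammation. Kallikrein 5 can also activate the protease-activated receptor PAR2 on keratinocytes, through which the cytokine TSLP is induced.

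The kallikrein genes lie side by side on mouse chromosome 7. In the RefSeq annotation of assembly GRCm38.p6 the order of the 12 protein-coding genes from Klk14 to Klk15 is Klk14, Klk13, Klk12, Klk11, Klk10, Klk9, Klk8, Klk7, Klk6, Klk5, Klk4 and Klk15, and Spink5 lies on another chromosome. The start regions of 4 of these neighbours are shown because they carried the contrast in the arrays: Klk13, Klk9 and Klk8 were the kallikreins called higher in bitransgenic skin, and Klk10 was the single one whose signals were lower in both bitransgenic arrays than in both wild type arrays. Each run is 300 bases of GRCm38.p6 on the plus strand, from 250 bases before the annotated RefSeq start to 50 from it, 5′ to 3′. Capitals mark CATG, one of several core sequences found in the half-sites that p53-family proteins such as p63 bind, and GGGCGG, a GC box, on either strand. The windows are chr7:43712317-43712616 for Klk13, chr7:43780804-43781103 for Klk10, chr7:43791641-43791940 for Klk9 and chr7:43797327-43797626 for Klk8.
Klk13: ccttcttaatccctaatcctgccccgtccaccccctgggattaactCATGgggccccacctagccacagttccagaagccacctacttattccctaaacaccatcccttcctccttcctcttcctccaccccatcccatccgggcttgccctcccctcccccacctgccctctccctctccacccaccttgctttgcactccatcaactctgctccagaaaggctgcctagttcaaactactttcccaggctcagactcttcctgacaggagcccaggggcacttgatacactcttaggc
Klk10: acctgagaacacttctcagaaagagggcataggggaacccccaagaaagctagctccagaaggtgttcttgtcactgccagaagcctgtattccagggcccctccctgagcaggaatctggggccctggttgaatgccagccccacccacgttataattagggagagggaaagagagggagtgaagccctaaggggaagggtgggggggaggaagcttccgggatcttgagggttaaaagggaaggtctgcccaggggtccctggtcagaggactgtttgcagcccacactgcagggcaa
Klk9: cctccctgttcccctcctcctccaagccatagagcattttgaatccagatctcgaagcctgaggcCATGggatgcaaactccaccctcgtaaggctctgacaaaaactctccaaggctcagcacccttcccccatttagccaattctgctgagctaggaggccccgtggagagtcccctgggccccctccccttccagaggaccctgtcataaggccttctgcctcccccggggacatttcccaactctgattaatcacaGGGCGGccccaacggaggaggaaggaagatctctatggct
Klk8: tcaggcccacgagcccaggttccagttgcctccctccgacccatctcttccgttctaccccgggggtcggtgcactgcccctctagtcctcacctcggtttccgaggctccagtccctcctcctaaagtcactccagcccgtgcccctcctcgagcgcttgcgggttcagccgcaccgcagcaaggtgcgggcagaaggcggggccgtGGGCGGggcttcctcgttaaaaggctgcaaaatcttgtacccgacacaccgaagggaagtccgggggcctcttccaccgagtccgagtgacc

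CATG was found in the windows of 6 of the 9 listed kallikreins (Klk14 included, and either of 2 annotated starts counted for Klk6 and Klk11), against 61.1% of 32851 promoter windows of the same length. Klk13 and Klk9 held 1 CATG each, and Klk8 and Klk10 held none. Other forms of the core were not searched. GGGCGG was found in 4 of the 9, namely Klk6, Klk7, Klk8 and Klk9, against 35.7% of all windows. The AP-1 letters TGANTCA (in 7.81% of all windows) and the TATAAA box (13.6%) were in the windows of none of the 9. CCAAT was in the windows of Klk9 and Klk11, against 37.4% of all. Each motif was searched on both strands, and matches of different motifs did not overlap in the printed runs. A match is a run of letters and not a measured binding site.

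Across the family, Klk8, Klk13 and Klk9 were severalfold higher in bitransgenic skin, and these were the 3 genes called. The other 6 were not called, with log2 differences of 1.51 for Klk6, 0.97 for Klk11, 0.46 for Klk7, 0.15 for Klk5, -0.30 for Spink5 and -0.85 for Klk10. With limma's fit over all genes, at an adjusted p under 0.05, 3 of the 9 genes were called higher and 0 lower, where 0.750% of all genes were called higher and 1.58% lower. At an unadjusted p under 0.05, 5 were higher and 1 was lower, against 6.91% and 9.76% of all genes. For 7 of the 9 genes the genotypes had no overlap, with 6 higher and 1 lower in bitransgenic skin, against 23.9% and 24.9% of all genes. Because the list was drawn up with this comparison in view, nothing is read from these counts. The median log2 difference was 0.97 over the 9 genes and 1.24 over the 8 kallikreins, or 2.36-fold, beside 0.0053 over all genes tested. All log2 differences are of log2(signal + 16), and signals are array intensities on a linear scale. In whole skin, more cells of a type and more RNA per cell cannot be told apart.

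**Figure D1:**
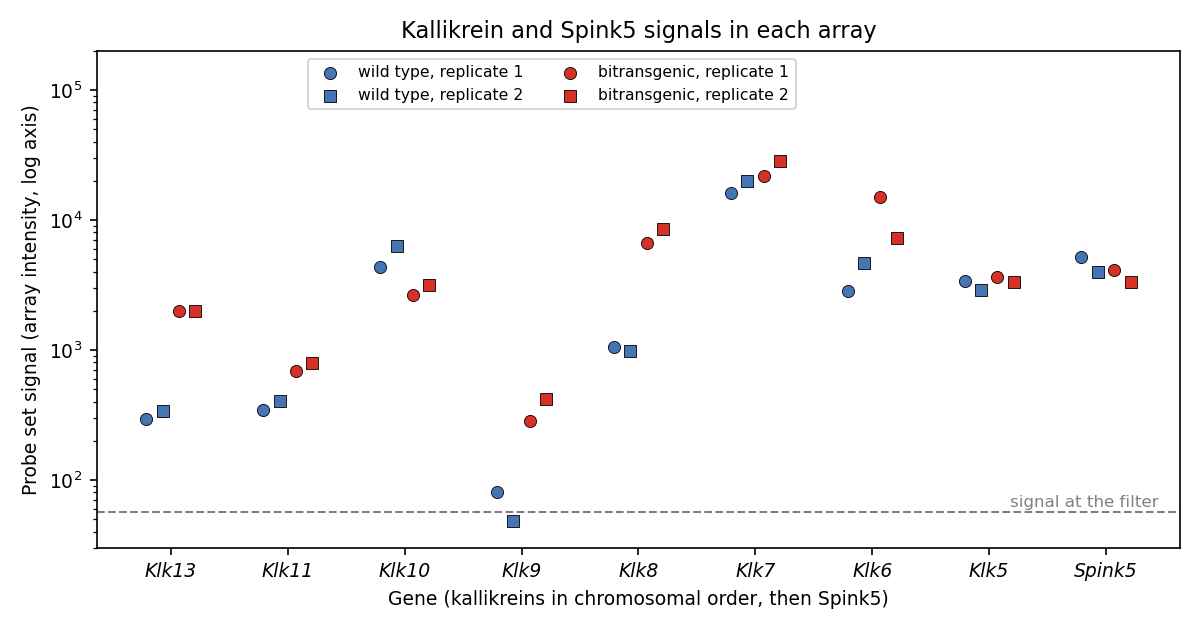
Probe set signal (array intensity, log axis) of the 8 kallikreins, in chromosomal order, and Spink5 in each of the 4 arrays, with blue for wild type, red for bitransgenic, circles for replicate 1 and squares for replicate 2. Klk8, Klk9 and Klk13 show wide gaps between the genotypes, Klk10 has the order turned, and the dashed line is the signal at the filter, 57.0.

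The cascade is generally drawn as starting with kallikrein 5, a trypsin-like protease that activates itself and then kallikreins 7 and 14. Klk5 read 3389 and 2886 in the wild type arrays (replicates 1 and 2), and 3646 and 3307 in the corresponding bitransgenic arrays. The arrays of the groups overlapped, and the log2 difference was 0.15 ± 0.23 (SE), with a 95% interval from -0.41 to 0.71. A change of Klk5 of 2-fold in either direction lay outside that interval.

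Klk7 codes for the chymotrypsin-like protease that cuts corneodesmosin and desmocollin 1. It read 16236 and 20036 in the wild type arrays and 21695 and 28356 in the bitransgenic arrays. All bitransgenic signals were above all wild type signals, but the difference of 0.46 ± 0.26 (SE), or 1.37-fold, was close in size to the gap between replicates, which was 0.30 in wild type mice and 0.39 in bitransgenic skin. The 95% interval ran from -0.18 to 1.10. Klk5 and Klk7 had the smallest differences among the 8 kallikreins.

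Klk8 had the largest difference of the family. It codes for neuropsin, a trypsin-like protease first studied in the brain and also made in the upper epidermis. Its signals were 1047 and 976.5 in wild type skin and 6642 and 8522 in bitransgenic skin. The wild type arrays lay close together, and the lower bitransgenic signal was several times the higher wild type one. The log2 difference was 2.88 ± 0.24 (SE), or 7.34-fold, the 30th highest of the 13070 genes. Klk8 was also called with any 1 of the 4 arrays left out, with values from 2.70 to 3.06.

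Klk13, at the far side of the cluster from Klk8, codes for another trypsin-like kallikrein. It read 292.0 and 335.9 in wild type arrays and 1989 and 1994 in bitransgenic arrays. Replicates of each genotype were close together, and the log2 difference was 2.61 ± 0.26 (SE), or 6.10-fold, the 45th highest of all genes. Left without bitransgenic replicate 1 or 2, the difference stayed at 2.61 in each case but was no longer called, with 1 array then standing for the group.

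Klk9, next to Klk8, is among the least studied kallikreins, and its protease activity in skin is little known. Its signals were 80.4 and 48.0 in wild type mice and 283.9 and 416.1 in bitransgenic skin. The wild type signals were near the filter's signal of 57.0, and the second lay below it, so the size of the difference depends on the added constant. With a constant of 16 it was 2.20 ± 0.40 (SE), or 4.58-fold and the 73rd highest. It was 2.45 with a constant of 1 and 1.68 with a constant of 64. Klk9 passed the threshold narrowly, and was not called with a constant of 1, with no filter, without bitransgenic replicate 1 (2.46) or without bitransgenic replicate 2 (1.93).

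Klk6, which codes for a trypsin-like protease also called neurosin, read 2854 and 4651 in wild type mice and 15016 and 7246 in bitransgenic skin. The groups did not overlap, yet the replicates of each differed, by 0.70 on the log2 scale in wild type mice and by 1.05 in bitransgenic skin. The log2 difference was 1.51 ± 0.41 (SE), or 2.85-fold, and was not called. Set against the wild type array of the same number, bitransgenic replicate 1 was 5.24-fold higher and replicate 2 was 1.56-fold higher. That pairing is not given in the labels, and by the Y-linked gene Eif2s3y it sets arrays of opposite sex side by side. The difference was 2.04 without bitransgenic replicate 2 and 0.99 without bitransgenic replicate 1, and it was called at 1.86 when wild type replicate 2 was left out.

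Klk11 codes for a trypsin-like kallikrein found in several epithelia. It read 344.8 and 403.9 in wild type mice and 692.9 and 798.9 in bitransgenic skin. All bitransgenic signals were higher than all wild type ones, and the difference of 0.97 ± 0.28 (SE), or 1.95-fold, exceeded the gaps between replicates, 0.22 in wild type and 0.20 in bitransgenic skin, but was not called. Within replicate numbers 1 and 2, which again cross sex, the bitransgenic array was 1.96-fold and 1.94-fold higher.

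Klk10 went the other way. Its product is a kallikrein for which little proteolytic activity is known. Klk10 read 4343 and 6268 in wild type mice and 2665 and 3138 in bitransgenic skin, so that both bitransgenic signals lay below both wild type signals. The log2 difference was -0.85 ± 0.27 (SE), with a 95% interval from -1.50 to -0.20, and was not called. On the chromosome Klk10 lies between Klk11 and Klk9, whose signals were higher in bitransgenic skin.

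Spink5 read 5214 and 3946 in wild type mice and 4092 and 3310 in bitransgenic skin. The groups overlapped, as bitransgenic replicate 1 lay above wild type replicate 2. The log2 difference was -0.30 ± 0.26 (SE), with a 95% interval from -0.92 to 0.32, which leaves out a 2-fold change either way. The values without 1 array ran from -0.50 to -0.10.

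**Figure D2:**
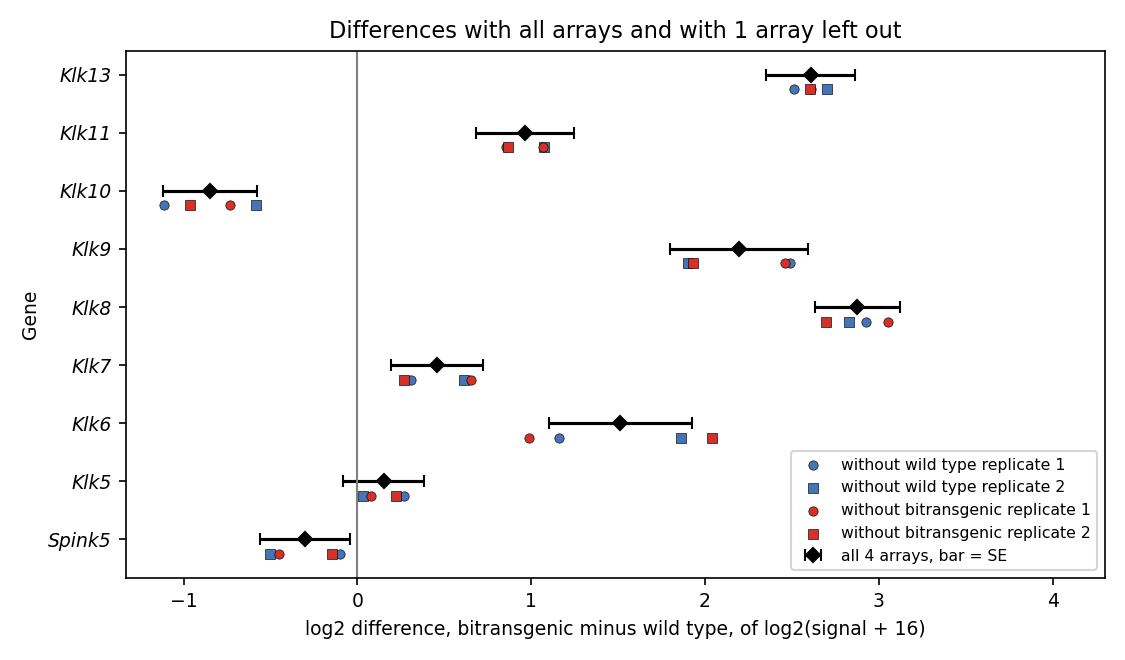
Log2 difference of bitransgenic minus wild type for each gene (black diamonds, bars are the SE of limma's fit) and, just under each, the difference with 1 of the 4 arrays left out (coloured points). Klk8 and Klk13 stay above 2.4 whichever array is left out, while Klk6 ranges from 0.99 to 2.04.

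At the level of RNA, each kallikrein was set against the inhibitor gene as the log2 ratio of its signal to that of Spink5 in the same array. The ratio is given as a change from the wild type mean because signals of different probe sets are not on a common scale. Protein amounts and protease activity were not measured. The ratio changed by 3.18 for Klk8 (9.04-fold), by 2.91 for Klk13 (7.51-fold) and by 2.50 for Klk9 (5.64-fold). For Klk8 the bitransgenic arrays stood at 2.84 and 3.51, and the wild type arrays at -0.15 and 0.15. The ratio of Klk6 changed by 1.81 and that of Klk11 by 1.27. For Klk7 and Klk5 the changes were 0.76 and 0.45, with bitransgenic values of 0.41 and 1.10 for Klk7 against wild type values of -0.35 and 0.35. The ratios of 7 kallikreins did not overlap between the groups and were higher in bitransgenic skin, where 35.3% of all genes had a higher ratio to Spink5 without overlap. Klk10 was the exception, with a change of -0.55 and overlapping arrays. Of the 7, Klk5 had overlapping signals of its own (log2 difference 0.15), and more of its ratio change came from Spink5 (-0.30, not called). Since Spink5 enters every ratio, these 8 values are not independent of each other.

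**Figure D3:**
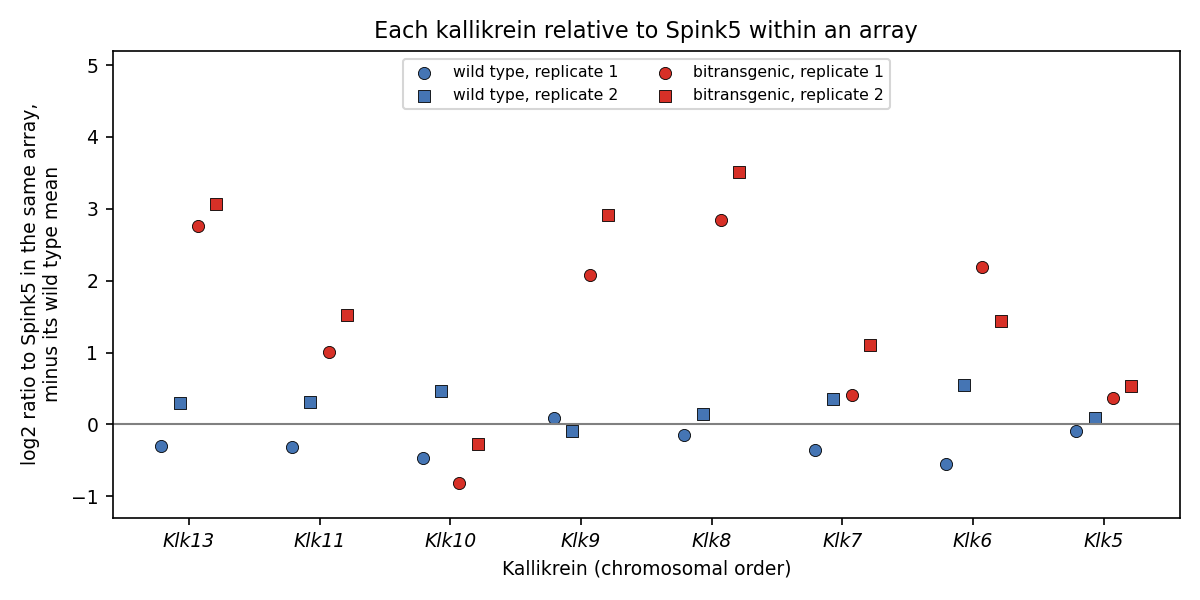
Log2 ratio of each kallikrein to Spink5 in the same array, minus the wild type mean of that ratio, for the 4 arrays (blue wild type, red bitransgenic). The bitransgenic points of Klk8, Klk13 and Klk9 lie between 2.08 and 3.51, and those of Klk10 at -0.82, below both wild type points, and at -0.28, between them.

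Other members of the kallikrein family gave little signal. Of 17 further tissue kallikreins, 11 had a probe set with a symbol and 2 passed the filter, with 0 called in either direction by limma and 0 at an unadjusted p under 0.05. Klk12, which lies between Klk13 and Klk11 on the chromosome, read 205.3 and 143.7 in wild type mice and 275.9 and 234.9 in bitransgenic skin (log2 difference 0.53 ± 0.35, SE; limma adjusted p = 0.521). Klk4, a protease of enamel formation on the other side of Klk5, was below the filter, with signals of 71.4, 8.1, 10.3 and 27.2 in the wild type and then the bitransgenic arrays, in order of replicate number. Along the cluster, the called genes Klk13 and Klk9 were thus separated by Klk12, Klk11 and Klk10, which were not called.

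The genes that work around the kallikreins were read from 5 more lists, each counted over the genes that passed the filter. Counts at an unadjusted p under 0.05 stand beside 6.91% higher and 9.76% lower among all genes. Among 22 epidermal proteases of other families, 1 rose and 0 fell, with 3 higher and 5 lower at an unadjusted p under 0.05. The median was -0.15. The gene that rose was Casp14, the caspase of cornification that helps break down filaggrin, with signals of 370.0 and 524.4 in wild type mice and 2411 and 2094 in bitransgenic skin. Its log2 difference was 2.31 ± 0.28 (SE; limma adjusted p = 0.0166), with no overlap between groups. It missed the threshold without bitransgenic replicate 1 (2.21, limma adjusted p = 0.112) or replicate 2 (2.41, adjusted p = 0.0668). Tmprss11f, a membrane serine protease, had a value of -1.71 ± 0.32 (limma adjusted p = 0.058). Prss8, named for its role and after its value was seen, codes for prostasin, a membrane-anchored protease of barrier formation, and had a value of -1.60 ± 0.33 (limma adjusted p = 0.0672). It read 1740 and 2511 in wild type mice and 839.2 and 546.2 in bitransgenic skin, without overlap.

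Of 18 protease inhibitors other than Spink5, 2 rose and 0 fell by limma, with 3 higher and 7 lower at an unadjusted p under 0.05 and a median of -0.42. Serpinb6c, an intracellular serpin, had signals of 102.7 and 86.4 in wild type mice and 2135 and 1650 in bitransgenic skin, a log2 difference of 4.10 ± 0.30 (SE; limma adjusted p = 0.00486). Its probe set is of the type marked _s_at, which may pick up related transcripts. Slpi, a secreted inhibitor of leukocyte and epithelial serine proteases, read 383.6 and 454.3 in wild type mice and 4587 and 1837 in bitransgenic skin. The bitransgenic arrays differed from each other but both were above the wild type arrays, and the log2 difference was 2.75 ± 0.44 (SE; limma adjusted p = 0.0356). Without bitransgenic replicate 1 the value for Slpi was 2.10 (limma adjusted p = 0.116). Tfpi2, a Kunitz-type inhibitor, had a value of 1.81 (limma adjusted p = 0.0697). Slpi and Serpinb6c were thus higher in a list whose median was below 0.

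Among 14 corneodesmosome and cornified layer genes, which include known kallikrein substrates, 1 rose and 0 fell by limma, with 1 higher and 4 lower at an unadjusted p under 0.05 and a median of -0.19. The one that rose was Flg, the gene of profilaggrin, from 655.3 and 605.8 to 3178 and 2489 (log2 difference 2.13 ± 0.25, SE; limma adjusted p = 0.0156). It too missed the threshold without bitransgenic replicate 1 (1.95, limma adjusted p = 0.115) or replicate 2 (2.31, adjusted p = 0.054). Cdsn, Dsg1a and Dsc1, which code for corneodesmosome proteins and were named once their values had been seen, stood at -0.61, -0.68 and -0.38, with limma adjusted p values of 0.246, 0.28 and 0.537. Dsg1b, a second mouse gene for desmoglein 1 and also named after its value was seen, stood at 0.36 with overlapping groups (limma adjusted p = 0.723). Cdsn read 11513 and 12161 in wild type mice and 7362 and 8195 in bitransgenic skin, without overlap. Dsc2, a desmocollin of lower layers, had the smallest p of those not called (-0.96, limma adjusted p = 0.168). Dsc3, another gene named after its value was seen, was higher without overlap (0.39, limma adjusted p = 0.504). Of the 14 genes, 2 were higher and 5 lower without overlap, against 23.9% and 24.9% of all genes.

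PAR2 itself was not analysed here, as no probe set carried the symbol F2rl1. Of 12 tested genes (16 listed, F2rl1 included) of protease-activated receptors and downstream signals, 2 rose and 0 fell, and 11 had positive values, with a median of 0.93. The protease-activated receptor genes among the 12 were F2r and F2rl2, named after their values were seen, and neither was called. F2r stood at 0.88 without overlap (limma adjusted p = 0.306) and F2rl2 at -0.064 with overlap (limma adjusted p = 0.956). The median thus rests mainly on the signal genes. The unadjusted p was under 0.05 for 6 genes, all higher, and for 9 of the 12 the bitransgenic arrays were all above the wild type arrays (23.9% of all genes). Tslp, the epithelial cytokine of allergic inflammation that PAR2 signalling can induce, read 52.4 and 53.3 in wild type mice and 314.3 and 510.6 in bitransgenic skin. The log2 difference was 2.60 ± 0.38 (SE; limma adjusted p = 0.0274). Both wild type signals lay below the filter's 57.0, and without bitransgenic replicate 1 or 2 the adjusted p was 0.0697 and 0.125, with values of 2.94 and 2.26. Ccl20, a chemokine that draws dendritic cells and interleukin-17-producing T cells, read 19.8 and 69.2 in wild type mice and 1016 and 1000.1 in bitransgenic skin, a log2 difference of 4.21 ± 0.47 (limma adjusted p = 0.0127). Since one of the wild type signals of Ccl20 and the mean of both also lay below 57.0, Tslp and Ccl20 passed the filter only through the bitransgenic arrays, and their counts are a description. With constants of 64 and 1, the value was 1.996 and 2.899 for Tslp and 3.34 and 4.72 for Ccl20. Il18, an interleukin-1 family cytokine stored in keratinocytes, had a value of 1.26 ± 0.26 (limma adjusted p = 0.0725), with no overlap.

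Of 14 lipid and barrier partners of the granular layer, 0 rose and 1 fell, with 1 higher and 2 lower at an unadjusted p under 0.05 and a median of -0.090. The one that fell was Ces1d, a carboxylesterase, from 1823 and 1112 to 91.7 and 141.7 (log2 difference -3.47 ± 0.38, SE, limma adjusted p = 0.0126). Which cells of whole skin gave the Ces1d signal was not tested. The 5 dermal fat markers read below were also lower without overlap, with a median of -1.48. Lipn, a lipase of late keratinocyte differentiation, had a value of 1.93 (limma adjusted p = 0.151) and was the gene counted as higher at the unadjusted p. It read 90.2 and 22.2 in wild type mice and 180 and 284.5 in bitransgenic skin. The second wild type signal and the wild type mean of 56.2 lay below the signal at the filter. Lipn thus passed the filter only through the bitransgenic arrays, and its count is a description. With constants of 64 and 1, its value was 1.34 and 2.31.

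**Figure D4:**
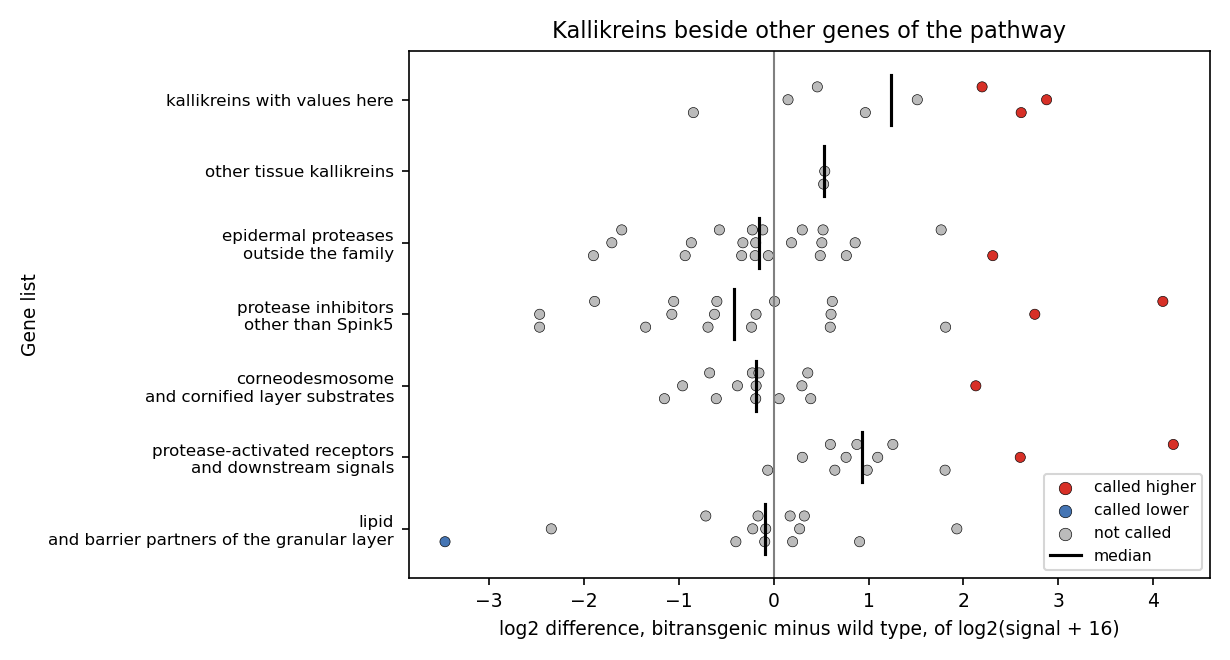
Log2 difference of bitransgenic minus wild type for each gene of the kallikreins and of the 6 lists around them, with red for genes called higher, blue for genes called lower, grey for genes not called, and a black line at each list's median. The kallikrein median is 1.24 and that of the receptor and signal list 0.93, while the medians of the other protease, inhibitor, substrate and lipid lists lie between -0.42 and -0.090.

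The wild type arrays correlated at 0.918 with each other over 27022 probe sets and the bitransgenic arrays at 0.949, while wild type replicate 2 correlated at 0.920 with bitransgenic replicate 2. Of the 4 probe sets of Trp63, the p63 gene, 2 read 837.8 or less in wild type arrays and 4644 or more in bitransgenic ones, and the other two overlapped. Each genotype held 1 array with high signal of the Y-linked gene Eif2s3y, wild type replicate 1 and bitransgenic replicate 2. Sex thus differed within both groups and between arrays of the same replicate number.

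Markers of skin layers and of other cell types were read in the same arrays, since kallikreins are made mainly by the granular layer. The summed signal of 10 granular layer markers was 86595 and 68289 in wild type mice and 72351 and 87152 in bitransgenic skin, with overlap, and their median log2 difference was -0.13 (0.041 without wild type replicate 1). Of these 10, Flg and Casp14 rose and 0 fell, and 3 were lower at an unadjusted p under 0.05. The loricrin gene Lor, a major granular layer product that was named after its value was seen, had a value of -1.15 (limma adjusted p = 0.247). Lor read 16101 and 8350 in wild type mice and 7171 and 3779 in bitransgenic skin. Krtdap, also named after its value was seen, was higher without overlap (0.69, limma adjusted p = 0.354). It read 19942 and 16652 in wild type mice and 22580 and 38206 in bitransgenic skin. Krtdap and Sbsn (named likewise, 20954 to 26060 over all arrays, with overlap) were the brightest of the 10 in each array. The summed signal leans on them, so its overlap says little about the dimmer markers. Of the 10 markers, 3 were higher and 3 were lower without overlap, against 23.9% and 24.9% of all genes. For 7 basal and spinous markers the sums were 111352 and 102210 in wild type mice and 83409 and 122652 in bitransgenic skin. Their median was -0.023 (0.055 with equal array medians), and Krt15 fell (-2.00, limma adjusted p = 0.0424). Krt1, the uncalled gene with the smallest p, was higher without overlap (1.58, limma adjusted p = 0.111). At an unadjusted p under 0.05, 1 of the 7 was higher and 1 was lower, against 6.91% and 9.76% of all genes. The labelled tissue was checked by the keratinocyte keratins Krt5, with signals from 19571 to 34271 over the 4 arrays, and Krt14, from 22719 to 36168.

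Several other compartments moved with genotype. The summed signal of 11 hair shaft markers was 64924 and 115422 in wild type mice and 1451 and 5637 in bitransgenic skin, and 8 of the 11 fell. For 11 inner root sheath and companion layer markers the sums were 141809 and 253991 against 4805 and 26281, and Krt72, Padi3 and Krt26 fell. Skeletal muscle sums were 184481 and 74787 against 17760 and 22032, with 6 of 8 markers falling. For 5 fat markers and 6 fibroblast markers the sums were lower in both bitransgenic arrays, at 21995 and 28943 against 48473 and 47698 for fat and at 59197 and 77343 against 130752 and 114607 for fibroblasts, with 0 called by limma in either list and 5 and 4 lower at an unadjusted p under 0.05. The 9 immune cell markers summed to 7362 and 10084 in wild type mice and 12573 and 14523 in bitransgenic skin. S100a9, a neutrophil protein that stressed keratinocytes also make, rose (2.61, limma adjusted p = 0.0304). It and S100a8, whose groups overlapped, weighed heavily in the bitransgenic sums. There S100a9 read 2938 and 2996, and S100a8 read 4901 and 5648. Of the 9, 3 were higher and 0 lower without overlap, against 23.9% and 24.9% of all genes. Ptprc, Cd3e, Cd207, Mcpt4 and Cma1 overlapped. All but S100a9 were named after their values were seen. The sums of 4 sebaceous gland markers (27244 to 54431 over all arrays) and 5 endothelial markers (2030 to 2790) overlapped between groups. The 5 melanocyte markers summed to 15526 in wild type replicate 2 and to between 1878 and 2069 in the other arrays, and 3 Schwann cell and nerve markers to 16547 and 11595 in wild type against 3761 and 7015 in bitransgenic skin. The lowest signal of any probe set was 0.1 or 0.2 in each array, so no marker could read 0. The part of these lists in the kallikrein differences was not tested.

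**Figure D5:**
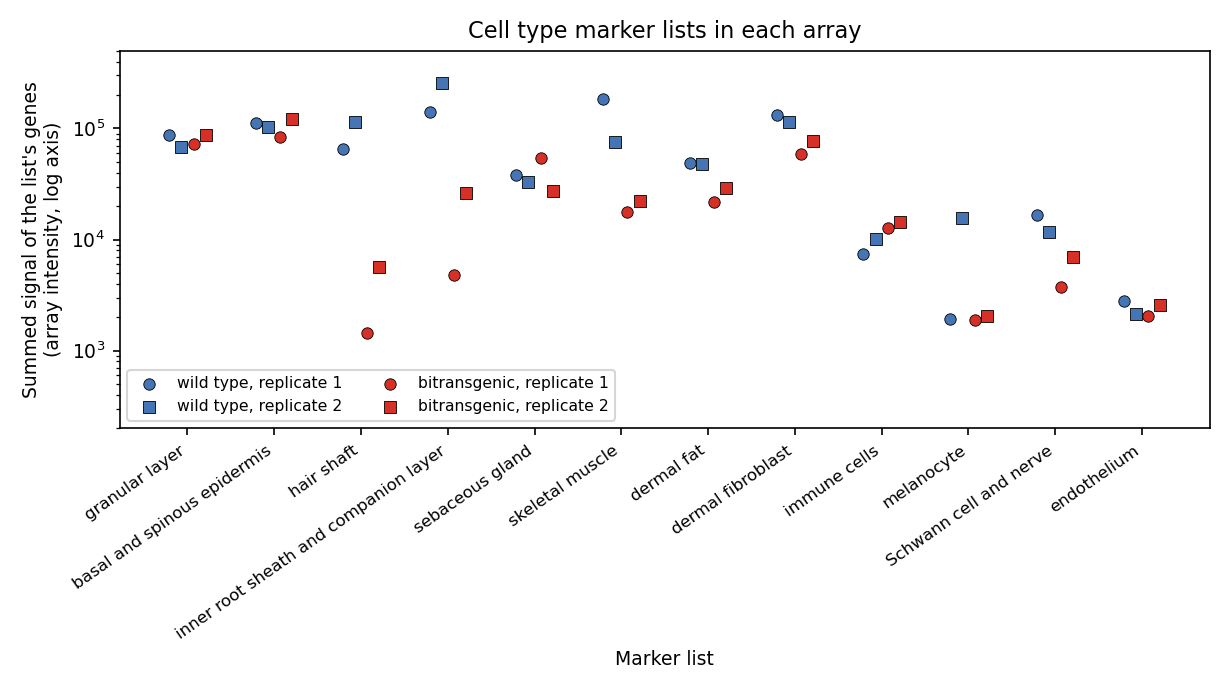
Summed signal (array intensity, log axis) of the genes of 12 marker lists in each array, with blue for wild type, red for bitransgenic, circles for replicate 1 and squares for replicate 2. Granular layer sums, which lean on Krtdap and Sbsn, overlap between the genotypes, as do basal and spinous sums. Hair shaft, inner root sheath and skeletal muscle sums lie lower in both bitransgenic arrays.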

How the data were processed

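Probe set signals were deposited by the authors as array intensity on a linear scale, and the tools recorded per the submitters' processing notes are MAS5 and affy, without versions or roles. The 2% trimmed mean was 500.0 in each array, so the deposited intensity values had been scaled to a common mean, which hides any change in the total amount of RNA per cell. The number of arrays limits the precision. Signals were taken as log2(signal + 16). Of 45037 probe sets that were not controls, 27022 had a mean at or above the 40th percentile (6.19, a signal of 57.0). Probe sets with 1 gene symbol were kept, and the one with the highest mean stood for its gene. The genotype fit used limma 3.58.1 under R 4.3.3 (intensity trend, Benjamini-Hochberg over 13070 genes, threshold 0.05; 2 residual and 4.45 prior degrees of freedom), after a check on simulated data. SE and 95% intervals are those of that fit.

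The genes and lists were chosen with earlier results of these data known. Named genes were every listed gene with a probe set, the called genes of each pathway list and the uncalled gene with the smallest p. Some called genes of the marker lists were named too, as was Krt1, uncalled with the smallest p of its list. Klk4 was named as a neighbour in the cluster, and Trp63, Eif2s3y, Krt5 and Krt14 as checks of the arrays. Others are said to be named after their values were seen. Promoter windows came from RefSeq (GRCm38.p6), and of those whose groups did not overlap, the 3 called and Klk10 are printed. The build of the probe sets is not given in the sources used here. There were 14 alternative settings.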

Additional observations from a re-analysis of the deposited data

How the results depend on the processing

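Each result was recomputed under 14 settings. Klk8 kept its call in all of them (2.70 to 3.06), and none of the 9 listed genes changed direction in any. The number of listed genes called higher ran from 1 to 4 with 1 array left out, and that called lower stayed at 0. The median over the listed genes was 0.71 with the filter at the 60th percentile, which leaves out Klk9. With no filter, 52 genes were called higher and 132 lower, with 1 other inhibitor and 1 receptor or signal gene higher. The stricter filter also left 1 receptor or signal gene higher. Leaving out _x_at and _s_at probe sets left 1 inhibitor higher, as with no intensity trend, where 1 other protease was lower. The mean of a gene's probe sets also gave 1 lower protease, and turned the medians of the protease and lipid lists to 0.0093 and 0.032. With an array left out, the lipid median was 0.017 (no wild type replicate 2) and the granular layer median 0.041 (no wild type replicate 1), while the basal and spinous median ran from -0.39 to 0.38.

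With no filter Slpi and Tslp missed the threshold (limma adjusted p = 0.0532 and 0.051), as did Slpi with no intensity trend (0.0583). Over all settings the adjusted p ran from 0.00781 to 0.115 for Flg, 0.00321 to 0.112 for Casp14, 0.0119 to 0.116 for Slpi and 0.0144 to 0.125 for Tslp. Ccl20, Serpinb6c and Ces1d kept their calls wherever they were tested.

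With 1 array left out, calls over all genes ran from 22 to 314 higher and 96 to 635 lower, where the lone array is assumed to vary like the other group. Leaving out wild type replicate 1 gave 173 and 331, and leaving out wild type replicate 2 gave 314 and 635. Leaving out bitransgenic replicate 1 gave 22 and 96, and leaving out replicate 2 of that genotype gave 30 and 124. The ranges were 0 to 2 higher and 0 to 1 lower for other proteases, 1 to 2 and 0 to 3 for inhibitors, 0 to 1 higher for substrates, 1 to 4 higher for receptors and signals, and 0 to 1 higher and 1 to 2 lower for lipid and barrier genes.

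The replicate numbers are not said to mark a shared litter or batch, and arrays of the same number differed in sex. Deviations of same-numbered arrays correlated at 0.21 over 13070 genes. With replicate number as a block, 207 genes were called higher and 438 lower, with 3 proteases, 3 inhibitors and 1 substrate lower. The listed genes called were Klk8, Klk13 and Klk9 with the block too. Calls of 2-fold changes are limited by the 2 arrays per group.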
